A study of Mus musculus with 12 samples.

Results

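Collagens are extracellular matrix proteins whose chains wind into triple helices and are secreted as homotrimers or heterotrimers. Fibrillar collagens form the tensile fibres of connective tissue, type IV chains form the sheet of every basement membrane, type VI chains form beaded filaments next to cells, and transmembrane collagens sit on the cell surface. In the lung the type IV network is part of the thin barrier between air and blood, and in the heart collagens surround and tie together the muscle cells. The collagen genes were taken as every row of the gene table whose symbol has the form Col, a type number, the letter a and a chain number, which gave 44 genes of 55679. They were placed in 7 classes by textbook membership: 11 fibrillar genes, 8 of the basement membrane, 6 of the beaded filament, 9 fibril-associated, 3 of the short-chain network, 4 transmembrane and 3 genes of anchoring fibrils or of no settled class. Expression was compared between lung and heart and between Adam19 KO and WT mice.

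The samples were whole lung and whole heart of adult male mice on the 129S6/SvEvTac background. There were 3 WT and 3 homozygous KO mice, and each mouse gave 1 lung and 1 heart library, 12 in all. In the KO, exons of Adam19, which encodes a membrane-bound metalloprotease of the ADAM family, were replaced by tdTomato and a hygromycin resistance cassette in every cell of the animal, so KO samples carried both the loss of Adam19 and the inserted sequences. The mouse identifiers have prefixes that WT and KO mice do not share, so genotype and whatever the prefix stands for, which the labels do not say, cannot be told apart.

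The libraries held 17674788 to 35862932 estimated transcript counts. Adam19 checked the labels, with gene values of 9.12 to 9.41 in WT lungs against 3.21 to 4.45 in KO lungs, and of 9.17 to 10.27 in WT hearts against 6.01 to 6.68 in KO hearts. The gene values are on a log2 scale, so that a difference of 1 is a doubling. The summed level of 8 lung epithelium markers was 18.87 to 19.16 in lungs and 12.54 to 13.23 in hearts, and that of 8 heart muscle markers was 21.64 to 21.92 in hearts and 14.27 to 15.35 in lungs. The WT lung library of replicate 3 stood apart for the collagens. Of 26 collagen genes with a mean value of at least 6, 24 were lower in it than the mean of the other WT lungs, and the median deviation of the 26 was -0.56. These deviations had a Pearson correlation of -0.41 with the GC content of the transcripts. Over the 12 libraries that correlation ran from -0.49 (heart WT 2) to 0.54 (heart WT 3), so a spread linked to GC was not limited to lung WT 3. Lung WT 2 held skeletal muscle transcripts (summed level of 7 markers 11.67, against 6.11 to 6.70 in the other lungs). In whole tissue, fewer cells of a type and less RNA per cell cannot be told apart.

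**Figure D1:**
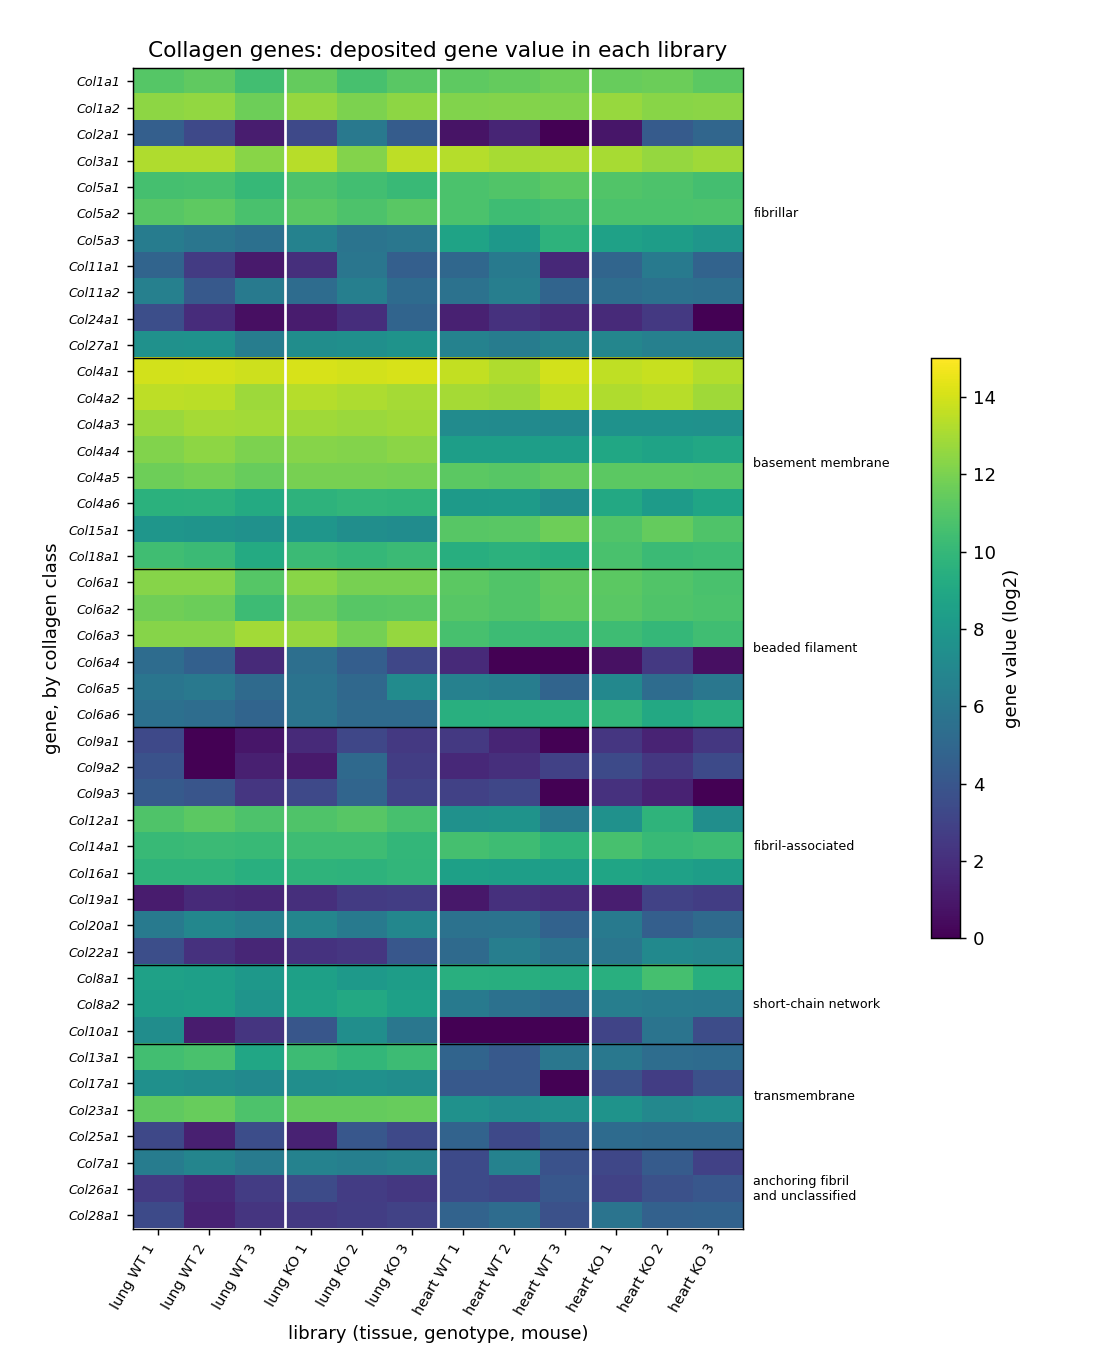
Heat map of the deposited gene value (log2, colour) of the 44 collagen genes (rows, grouped by class) in the 12 libraries (columns, by tissue, genotype and mouse). Col4a1, Col4a2, Col3a1 and Col1a2 were high in every library, Col4a3, Col4a4, Col13a1 and Col23a1 were high in the 6 lungs and low in the 6 hearts, and Col15a1 and Col6a6 were the reverse.

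Col18a1 and Col15a1 encode the multiplexin collagens of the basement membrane zone, related proteins that release endostatin or a fragment like it. Col15a1 separated lung from heart, and Col18a1 had the smallest p of the collagens between KO and WT hearts. The estimated shares of Col18a1 transcripts from its upstream and downstream starts also differed between lung and heart, with both in use in each organ. The stretches of 250 bases directly upstream of the annotated starts of both genes are therefore shown here. Coordinates and sequences are those of GRCm39 with GENCODE vM39, and each sequence is written 5′ to 3′ on the strand of the gene. Capitals mark matches, on either strand, to the GC box GGGCGG, the TATA box TATAAA or the CCAAT box CCAAT. The Col18a1 upstream start is base 77002390 of chromosome 10 on the reverse strand (window chr10:77002391-77002640). The quantified downstream transcripts begin at 76949780 and 76949539, and the 5′-most base annotated for that group in vM39 is 76949814 (window chr10:76949815-76950064), and the Col15a1 start is base 47207582 of chromosome 4 on the forward strand (window chr4:47207332-47207581).
Col18a1 upstream start: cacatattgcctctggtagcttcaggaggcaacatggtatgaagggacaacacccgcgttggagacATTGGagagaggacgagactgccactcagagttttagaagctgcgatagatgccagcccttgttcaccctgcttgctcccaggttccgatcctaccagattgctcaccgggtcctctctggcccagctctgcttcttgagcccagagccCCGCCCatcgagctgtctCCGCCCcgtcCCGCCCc
Col18a1 downstream start: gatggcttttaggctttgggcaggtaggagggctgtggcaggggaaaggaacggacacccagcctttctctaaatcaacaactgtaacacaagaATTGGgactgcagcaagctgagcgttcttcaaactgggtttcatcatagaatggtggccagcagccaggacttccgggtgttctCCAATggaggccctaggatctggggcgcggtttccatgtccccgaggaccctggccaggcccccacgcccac
Col15a1 start: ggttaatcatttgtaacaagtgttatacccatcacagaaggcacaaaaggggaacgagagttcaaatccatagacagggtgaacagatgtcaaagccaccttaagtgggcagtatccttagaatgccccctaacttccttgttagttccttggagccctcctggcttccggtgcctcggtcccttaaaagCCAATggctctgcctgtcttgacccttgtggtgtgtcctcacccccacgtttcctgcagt
The Col18a1 upstream window held 3 GC boxes and 1 CCAAT box, the downstream window held 2 CCAAT boxes and no GC box, and the Col15a1 window held 1 CCAAT box and no GC box. None of these windows held TATAAA. Over the 21751 windows of the same length upstream of protein-coding genes, 29.9% held a GC box, 36.2% a CCAAT box and 12.5% a TATA box. The upstream Col18a1 window overlaps an exon of the gene Gm67721. A match describes these letters and is not a binding site.

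Levels of different genes were compared per length, as the estimated counts of each transcript divided by its length, summed over a gene and given as a share of the total of all 44 collagens in the same library. The ranking was led by the same few genes in both organs. Col4a1, the ubiquitous type IV chain of basement membranes, made up 17.8% to 21.4% of collagen abundance in lungs and 17.1% to 22.6% in hearts. Its partner chain Col4a2 made up 8.63% to 12.03% in lungs and 12.1% to 16.2% in hearts. Col3a1, the fibrillar collagen of compliant tissues and vessels, made up 8.21% to 17.03% in lungs and 13.99% to 22.7% in hearts. In WT hearts Col3a1 (mean 20.4%) and Col4a1 (19.8%) overlapped, whereas in WT lungs every Col4a1 share lay above every Col3a1 share (mean 13.1%).

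Between organs the classes differed in size. The fibrillar share was 26.4% ± 3.18 (SD, n = 3) in WT lungs and 27.0% ± 5.13 in KO lungs, against 39.5% ± 3.03 in WT hearts and 38.5% ± 3.73 in KO hearts, and the 6 lungs (21.1% to 30.4%) did not overlap the 6 hearts (34.2% to 41.6%). The basement membrane share was 43.3% to 50.6% in lungs and 40.9% to 49.0% in hearts and overlapped. The beaded filament share was 14.5% to 16.5% in lungs and 9.69% to 11.8% in hearts. Transmembrane collagens made up 4.74% to 6.59% of collagen abundance in lungs and 0.406% to 0.578% in hearts. Fibril-associated, short-chain and anchoring or unclassified collagens overlapped between organs and stayed at or below 5.29%, 3.16% and 0.170% in any library. No class share is tested, since it is a score over the members.

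**Figure D2:**
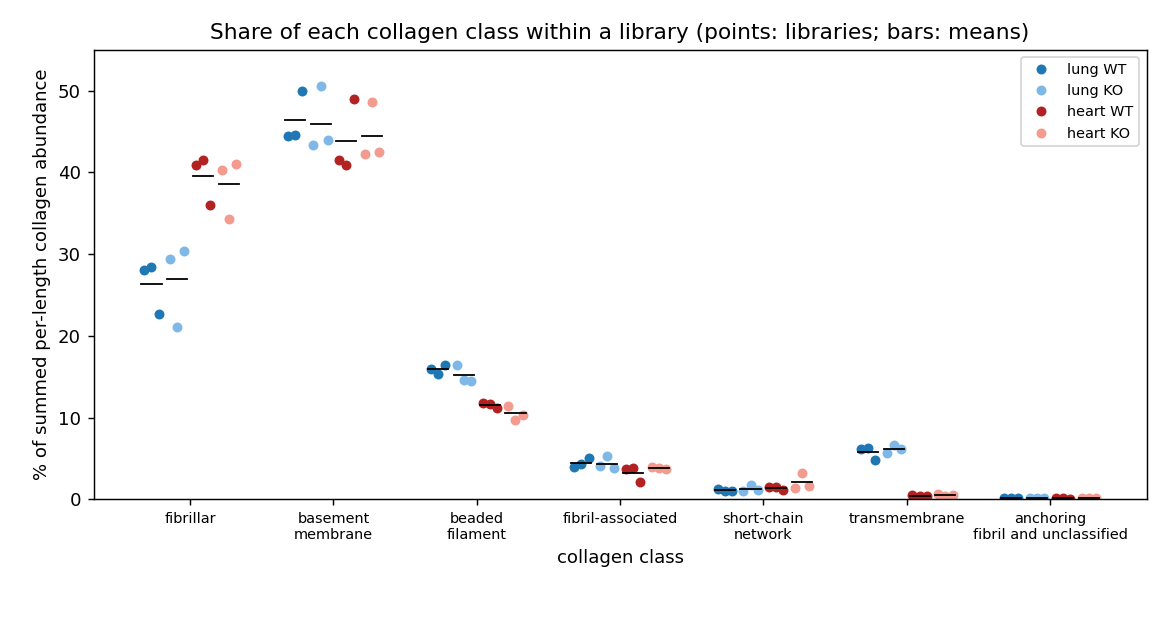
Share of each collagen class (x axis) in the summed per-length abundance of the 44 collagen genes (y axis, percent), with 1 point for each library and a bar at the mean of 3. The fibrillar share was 21.1% to 30.4% in lungs and 34.2% to 41.6% in hearts, and the transmembrane share was 4.74% to 6.59% in lungs and 0.406% to 0.578% in hearts.

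Over all transcripts, collagens were a minor part of the per-length abundance, which short abundant noncoding RNAs dominate. The collagen share was 0.0448% ± 0.00669 in WT lungs, 0.0872% ± 0.0214 in KO lungs, 0.0511% ± 0.00784 in WT hearts and 0.0458% ± 0.0123 in KO hearts (SD, n = 3). The distance between WT and KO lungs rested on the denominator. Without the 28 genes that were among the 10 most abundant in any library, the lungs were at 0.216% ± 0.0714 (WT) and 0.238% ± 0.0300 (KO), and the hearts at 0.110% ± 0.0125 and 0.109% ± 0.0164.

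WT lung and WT heart were compared first. Of the 35 collagen genes that passed the filter on low values, 11 were higher in lung and 4 higher in heart, and 20 did not pass the thresholds for a call (limma, adjusted p under 0.05, a fold of at least 1.5 and a group mean of at least 6). These 42.9% stand against 50.2% of all 16636 genes tested. By direction, 29.7% of all genes were called higher in lung and 20.5% higher in heart. Of the 35, 6 had at least 1 library below the filter. The median difference, lung minus heart, was 0.34 for the collagens and 0.30 for all genes. With transcripts summed and rescaled by median-of-ratios factors the medians were 0.11 and 0.07, so differences near 0 in this comparison depend on the scaling. The organs of KO mice gave 15 collagens higher in lung and 5 higher in heart of 37 tested, where 53.2% of all genes were called, 30.9% higher in lung and 22.3% higher in heart. The 15 collagens called in WT mice were all called in KO mice with the same direction. So were 89.2% of all genes called in WT mice, and with 15 genes this is not read as particular to the collagens. The further calls in KO mice were Col4a5, Col6a1, Col7a1 and Col27a1 in lung and Col22a1 in heart. A test of the difference between the WT and KO organ contrasts is the genotype-by-tissue test given further on.

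**Figure D3:**
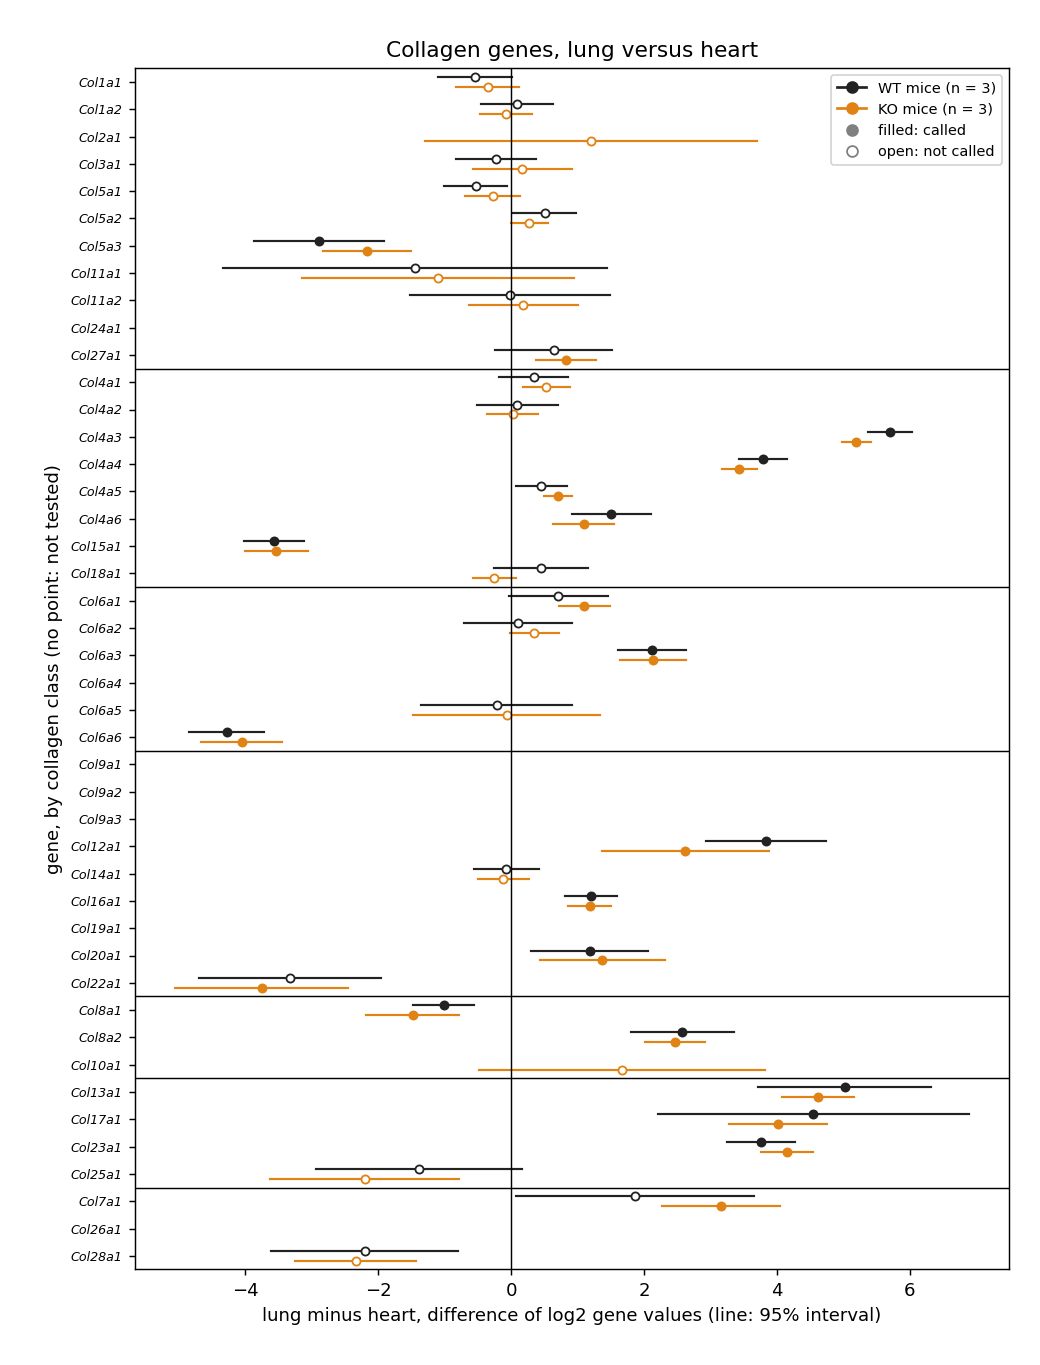
Lung minus heart difference of the log2 gene value (x axis) for each collagen gene (y axis, by class), in WT mice (black) and KO mice (orange), with 95% intervals, filled points for called genes and no point where a gene was not tested. Col4a3, Col13a1, Col17a1, Col12a1, Col4a4 and Col23a1 lie farthest to the right and Col6a6, Col15a1 and Col22a1 farthest to the left, while Col1a1, Col1a2, Col3a1 and Col4a2 lie near 0.

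Among basement membrane genes, Col4a3, Col4a4 and Col4a6 of the specialised type IV networks were called higher in lung in both genotypes, and the ubiquitous chains Col4a1 and Col4a2 were called in neither. Col4a3, a chain of the mature alveolar and kidney basement membrane, had gene values of 12.74, 12.96 and 12.93 in WT lungs and 7.21, 7.18 and 7.13 in WT hearts. It was higher in lung by 5.70 ± 0.15 (SE, adjusted p = 1.32e-07) in WT mice and by 5.19 ± 0.10 (adjusted p = 2.78e-08) in KO mice. Col4a4, which assembles with Col4a3, had 12.15, 12.44 and 12.04 in WT lungs and 8.42, 8.41 and 8.43 in WT hearts, a difference of 3.79 ± 0.16 (adjusted p = 5.87e-07). The libraries of each organ lay close together for both genes. Col4a6, a chain of smooth muscle and other specialised basement membranes, was higher in lung by 1.51 ± 0.26 (adjusted p = 0.00111).

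Col4a5, the partner of both specialised networks, had a smaller difference of 0.45 ± 0.17 in WT mice, which missed the fold threshold, and of 0.70 ± 0.09 (adjusted p = 0.000168) in KO mice, a call that was lost with summed transcripts and with limma-voom. Col4a1, with Col4a2 a chain of nearly all basement membranes, had 13.997, 14.054 and 13.837 in WT lungs and 13.65, 13.24 and 13.98 in WT hearts, a difference of 0.34 with a 95% interval of -0.18 to 0.86. In KO mice Col4a1 was 14.003 to 14.102 in lungs and 13.29 to 13.75 in hearts, a difference of 0.53 ± 0.15, also under the fold threshold. Under quantile normalization Col4a1 passed in both genotypes, with 1.23 in WT and 1.43 in KO mice. Col4a2 differed by 0.10 ± 0.27 in WT and 0.02 ± 0.17 in KO mice. Its sign depended on the scaling (-0.27 to 0.79 in WT and -0.22 to 0.71 in KO mice), and under quantile normalization it passed in KO mice.

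These 6 genes lie as head-to-head pairs in GRCm39. Col4a1 (8: 11248423 to 11362826, reverse strand) and Col4a2 (8: 11362471 to 11499287, forward) overlap at their 5′ ends, as do Col4a4 (1: 82426144 to 82564800, reverse) and Col4a3 (1: 82564642 to 82699780, forward). Col4a6 (X: 139948399 to 140257072, reverse) and Col4a5 (X: 140258354 to 140472231, forward) are neighbours. Within the last pair the differences between organs were 1.51 and 0.45, and within the second pair 3.79 and 5.70.

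Of the multiplexins, Col15a1 was called higher in heart in both genotypes and Col18a1 was called in neither. Col15a1, of capillary and muscle basement membranes, had 7.87, 7.79 and 7.60 in WT lungs and 11.13, 11.17 and 11.68 in WT hearts. It was lower in lung by 3.57 ± 0.20 (adjusted p = 1.99e-06) in WT and by 3.53 ± 0.21 (adjusted p = 1.82e-06) in KO mice, with no overlap. Col18a1 had 10.38, 10.23 and 9.17 in WT lungs and 9.41, 9.64 and 9.38 in WT hearts, where 1 lung lay below all hearts and the difference was 0.45 with an interval of -0.25 to 1.15. Without lung WT 3 the difference was 0.83 (adjusted p = 0.00304) and passed the thresholds. In KO mice Col18a1 had 10.243, 10.004 and 10.239 in lungs and 10.68, 10.23 and 10.33 in hearts, a difference of -0.25 with an interval of -0.58 to 0.08.

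Of the 4 transmembrane collagens 3 were higher in lung and none was called higher in heart. Col13a1, a cell adhesion collagen, had 10.47, 10.67 and 8.87 in WT lungs and 4.84, 4.19 and 5.92 in WT hearts, a difference of 5.02 ± 0.57 (adjusted p = 0.000101). Col23a1 had 11.36, 11.52 and 10.79 in WT lungs and 7.59, 7.30 and 7.49 in WT hearts, a difference of 3.76 ± 0.22 (adjusted p = 2.72e-06), and it had the highest mean share of its class per length in both organs. Col17a1, the hemidesmosome collagen of epithelia, had 7.52, 7.35 and 7.12 in WT lungs. In WT hearts it had 4.17 and 4.17 and was listed at 0 in replicate 3, so the fitted difference of 4.55 ± 1.02 (adjusted p = 0.00463) depends on that 0, and was 3.16 without the library. The KO hearts had 2.75 to 3.73 and the difference in KO mice was 4.02 ± 0.32 (adjusted p = 9.78e-06). Col25a1, of neurons and developing muscle, ran the other way, with 1.35 to 3.56 in WT lungs and 3.29 to 4.78 in WT hearts, and no group mean reached 6.

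Of the beaded filament genes, Col6a3 and Col6a6 separated the organs in opposite directions. Col6a3, the long chain that completes the standard type VI trimer, had 12.25, 12.28 and 12.94 in WT lungs and 10.62, 10.27 and 10.24 in WT hearts, a difference of 2.12 ± 0.22 (adjusted p = 6.81e-05). Col6a6, a chain that can take its place, had 5.52, 5.36 and 4.86 in WT lungs and 9.47, 9.53 and 9.58 in WT hearts, a difference of -4.28 ± 0.25 (adjusted p = 2.46e-06). In KO mice the differences were 2.14 ± 0.22 and -4.05 ± 0.27. Col6a1, with the highest mean share of its class per length in both organs, had 12.25, 12.28 and 11.05 in WT lungs and 11.19, 10.94 and 11.32 in WT hearts. Its difference of 0.71 ± 0.32 missed the test in WT mice, was 1.12 (adjusted p = 0.00102) without lung WT 3, and was 1.102 ± 0.166 (adjusted p = 0.000404) in KO mice. Col6a2 differed by 0.11 ± 0.35, Col6a5 lay between 4.85 and 7.26 in all libraries, and Col6a4 was not tested between organs, with no value above 5.45.

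Of the fibrillar genes, 1 of 9 tested was called in WT and 2 of 10 in KO mice. Col5a3, a chain of type V found in some trimers, had 6.32, 5.92 and 5.54 in WT lungs and 8.72, 8.02 and 9.71 in WT hearts, a difference of -2.89 ± 0.43 (adjusted p = 0.000477). Col1a1, which with Col1a2 makes the main fibrillar collagen, had 11.06, 11.33 and 10.43 in WT lungs and 11.295, 11.479 and 11.696 in WT hearts. Its difference was -0.55 with an interval of -1.11 to 0.01. With limma-voom on summed transcripts it was -0.94 (adjusted p = 0.0432), and without lung WT 2 it was -0.75 (adjusted p = 0.0357), both past the thresholds, whereas it was -0.29 (adjusted p = 0.168) without lung WT 3 and -0.40 (adjusted p = 0.233) under quantile normalization. Col3a1 had 13.21, 13.21 and 12.32 in WT lungs and 13.32, 13.04 and 13.08 in WT hearts, a difference of -0.23 with an interval of -0.83 to 0.37, and its sign turned under quantile normalization (0.37) and without lung WT 3 (0.07). Col1a2, Col5a1, Col5a2, Col11a1, Col11a2 and Col27a1 were not called in WT mice, and Col27a1 was called higher in lung in KO mice (0.83 ± 0.20, adjusted p = 0.00486), a call that was lost with summed transcripts, quantile normalization and limma-voom.

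In the fibril-associated class, 3 of 5 tested genes were higher in lung in both genotypes. Col12a1, which decorates fibrils in load-bearing tissue, had 10.89, 11.19 and 10.83 in WT lungs and 7.60, 7.69 and 6.13 in WT hearts, a difference of 3.83 ± 0.39 (adjusted p = 5.91e-05). In KO hearts Col12a1 had 7.57, 9.76 and 7.43, and the difference in KO mice was 2.62 ± 0.55 (adjusted p = 0.00259). Col16a1 was higher in lung by 1.195 ± 0.170 and Col20a1 by 1.18 ± 0.38 in WT mice. The Col20a1 call in WT mice was lost with summed transcripts, quantile normalization and limma-voom, and without lung WT 2, lung WT 3 or heart WT 3. Its call in KO mice was lost with quantile normalization and without lung KO 1 or lung KO 3. Col14a1, with the highest mean share of the class per length in both organs (in lung overlapping Col16a1), had 10.12 to 10.22 in WT lungs and 9.78 to 10.55 in WT hearts and differed by -0.07 ± 0.21. Col22a1, a collagen of tissue junctions such as those of muscle and tendon, had 1.58 to 3.63 in WT lungs and 5.18 to 6.42 in WT hearts. Its difference of -3.33 ± 0.60 was not a call because the heart mean stayed under 6, while in KO mice, with hearts at 5.87 to 7.14, it was (-3.75 ± 0.57, adjusted p = 0.000406). The KO lungs had 2.18 to 4.10, and the call was lost when the filter on low values was raised to 6.

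The short-chain collagens of vessels divided between the organs. Col8a2 had 8.43, 8.53 and 7.77 in WT lungs and 6.19, 5.59 and 5.22 in WT hearts, a difference of 2.58 ± 0.34 (adjusted p = 0.000239). Col8a1 had 8.566, 8.495 and 8.007 in WT lungs and 9.44, 9.39 and 9.28 in WT hearts, a difference of -1.01 ± 0.20 (adjusted p = 0.00241). Col8a2 had the higher mean share per length in lung, and Col8a1 in heart. Col7a1, of the anchoring fibrils under epithelia, had 6.25 to 6.83 in the 3 WT lungs, and 3.38, 6.63 and 3.76 in WT hearts. Its difference of 1.87 ± 0.78 missed the test (adjusted p = 0.0656). With the mouse as a replicate block the paired fit called it (adjusted p = 0.0296), which took the WT count from 15 to 16. The heart WT 2 value rested on 2.98 estimated counts in all, of which 0.677 and 0.628 were on retained-intron transcripts of 341 and 525 nucleotides, and the difference was 2.89 (adjusted p = 0.000677) without that library. Col28a1, with the highest mean share of its class per length in heart, had 1.52 to 3.38 in WT lungs and 3.71 to 5.29 in WT hearts, and passed the filter through the hearts alone. Col26a1 was not tested between organs.

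Col2a1, Col9a1, Col9a2, Col9a3 and Col10a1, which are cartilage collagens, along with Col19a1, Col24a1, Col26a1 and Col6a4, did not pass the filter in the WT comparison of organs. The cartilage genes varied widely between libraries of one group. Col10a1, the collagen of hypertrophic cartilage, had 7.34, 1.14 and 2.33 in WT lungs and 4.04, 7.40 and 5.94 in KO lungs. It was listed at 0 in the 3 WT hearts, and KO hearts had 3.10, 5.77 and 3.50 from 8.01, 54.5 and 10.8 estimated counts. Acan, the cartilage proteoglycan, moved with it, with 6.05, 0 and 2.36 in WT lungs, 3.49, 7.65 and 5.79 in KO lungs, 3.674, 4.197 and 3.947 in WT hearts and 5.92, 7.59 and 5.62 in KO hearts. The Pearson correlation of Col10a1 with Acan was 0.98 over the 6 lungs and 0.98 over the 6 hearts. These correlations pool WT and KO libraries. In hearts both genes lay higher in every KO library than in every WT library, so the 0.98 there includes the difference between genotypes. In hearts the other collagens named followed Acan less, at 0.70 (Col2a1), 0.18 (Col9a1), 0.40 (Col9a2) and -0.21 (Col9a3). In lungs these 4 were at 0.75, 0.97, 0.95 and 0.45. Col11a1, Col11a2 and Col27a1, also set beside Acan, were at 0.82, 0.71 and 0.28 in lungs and at 0.44, -0.05 and 0.12 in hearts. The summed level of the 10 cartilage markers was 9.61 to 10.26 in WT hearts and 10.51 to 10.78 in KO hearts, with 3 of the 10 genes at 0 in all libraries of each heart group. The highest of them in hearts were Cytl1 (8.62 to 9.22 in WT, 9.12 to 9.74 in KO) and Comp. Comp had 7.68 to 8.89 in WT and 8.87 to 9.34 in KO hearts. Both overlapped between genotypes, as did Sox9, Cnmd and Hapln1, while Acan and Matn4 did not. Of all genes tested in heart, 7.82% lay higher in KO without overlap and 5.23% lower. The part of cartilage in these values was not tested.

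The ratio of one chain to another, taken as the difference of their gene values within a library, does not depend on the scaling between libraries. Of 8 ratios set beside each other in the lung and heart of the same mouse, 7 differed between organs in all 6 mice (exact two-sided sign-flip permutation test over 6 mice, p = 0.03125, the smallest this design allows, adjusted p = 0.0357 over 8 ratios). Col18a1:Col15a1 moved most, with a mean log2 ratio of 2.40 ± 0.46 (SD) in lungs and -1.25 ± 0.77 in hearts. Per length Col18a1 was 5.55 times Col15a1 in lungs (range 3.37 to 7.86) and 0.464 times in hearts (0.231 to 0.883). Col4a4:Col4a3 was 1.84 lower in lung on the log2 scale on average (SD of 0.21 over mice). Per length Col4a4 was 0.606 times Col4a3 in lungs (0.582 to 0.632) and 2.08 times in hearts (1.85 to 2.22), so the order of these partner chains turned between organs.

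The other ratios moved by less. Col6a3:Col6a1 was higher in lung by 1.22 ± 0.89, and the spread came from WT mouse 3 (2.98, against a lowest value of 0.57). Without that mouse the mean was 0.87, and with summed estimated counts of all 6 mice it was 0.65. Col6a2:Col6a1 was 0.68 lower in lung, and Col5a2:Col5a1 was 0.79 higher. Col1a2:Col1a1 was higher in lung by 0.46 ± 0.32 and Col3a1:Col1a1 by 0.42 ± 0.18. Col1a2 exceeded Col1a1 per length in every library, by 2.58 to 3.35 times in lungs and 1.56 to 2.51 times in hearts. Col4a2:Col4a1 was lower in lung in 5 of 6 mice (mean -0.38 ± 0.31, exact permutation p = 0.0625, adjusted p = 0.0625). With summed estimated counts the mean was -0.29 (adjusted p = 0.0312).

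Transcript use separated the organs in 1 collagen. Among the 17 collagen genes with at least 100 estimated counts in every library, 2 transcripts had shares that differed by at least 20 percentage points between WT lungs and WT hearts without overlap, and both belonged to Col18a1. The transcript ENSMUST00000081654, which begins at the upstream start, made up 33.9%, 35.0% and 28.6% of the gene's estimated counts in WT lungs and 74.5%, 85.2% and 77.8% in WT hearts. ENSMUST00000072755, which begins 52610 bases downstream, made up 40.5%, 46.5% and 48.2% in WT lungs and 19.0%, 12.5% and 22.2% in WT hearts. These WT values chose the transcripts. In the KO libraries, which did not, the upstream transcript made up 39.8% ± 4.1 in lungs and 84.4% ± 3.5 in hearts (SD, n = 3), 44.6 percentage points lower in lung. The downstream transcript made up 39.1% ± 3.4 and 7.5% ± 2.1, 31.6 points higher in lung. Neither comparison overlapped, and each exact permutation p was 0.10, the smallest that 3 against 3 allows.

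The question of the study was what loss of Adam19 changes, and no tested collagen gene passed the thresholds between KO and WT in either organ. Not tested in lung were Col9a1, Col9a2, Col19a1, Col22a1, Col24a1, Col25a1, Col26a1 and Col28a1. Not tested in heart were Col2a1, Col6a4, Col9a1, Col9a2, Col9a3, Col10a1, Col19a1 and Col24a1. Col10a1 was listed at 0 in the 3 WT hearts and had 3.10, 5.77 and 3.50 in KO hearts. With 1 library left out it entered the heart fit in 4 settings, at 4.12 to 4.63 (limma, adjusted p 0.365 to 0.734). In the lung, 0 of 36 tested collagens were called by limma, 0 by limma-voom, and 0 had an unadjusted p under 0.05, where 0.0665% of all 16551 genes were called and 5.93% had such a p. In the heart, 0 of 36 were called by limma and by limma-voom and 6 had an unadjusted p under 0.05, against 0.085% and 7.46% of all 15303 genes. All 6 lay higher in KO hearts with no overlap between KO and WT libraries, and none of the 36 lay lower without overlap. Over all genes 7.82% lay higher and 5.23% lower in this way in the heart, and 6.41% and 6.4% in the lung, where 2 collagens lay higher (Col4a5 and Col4a6) and none lower. The median KO minus WT difference of the collagens was 0.14 in lung and 0.11 in heart, against 0.01 and 0.03 for all genes.

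**Figure D4:**
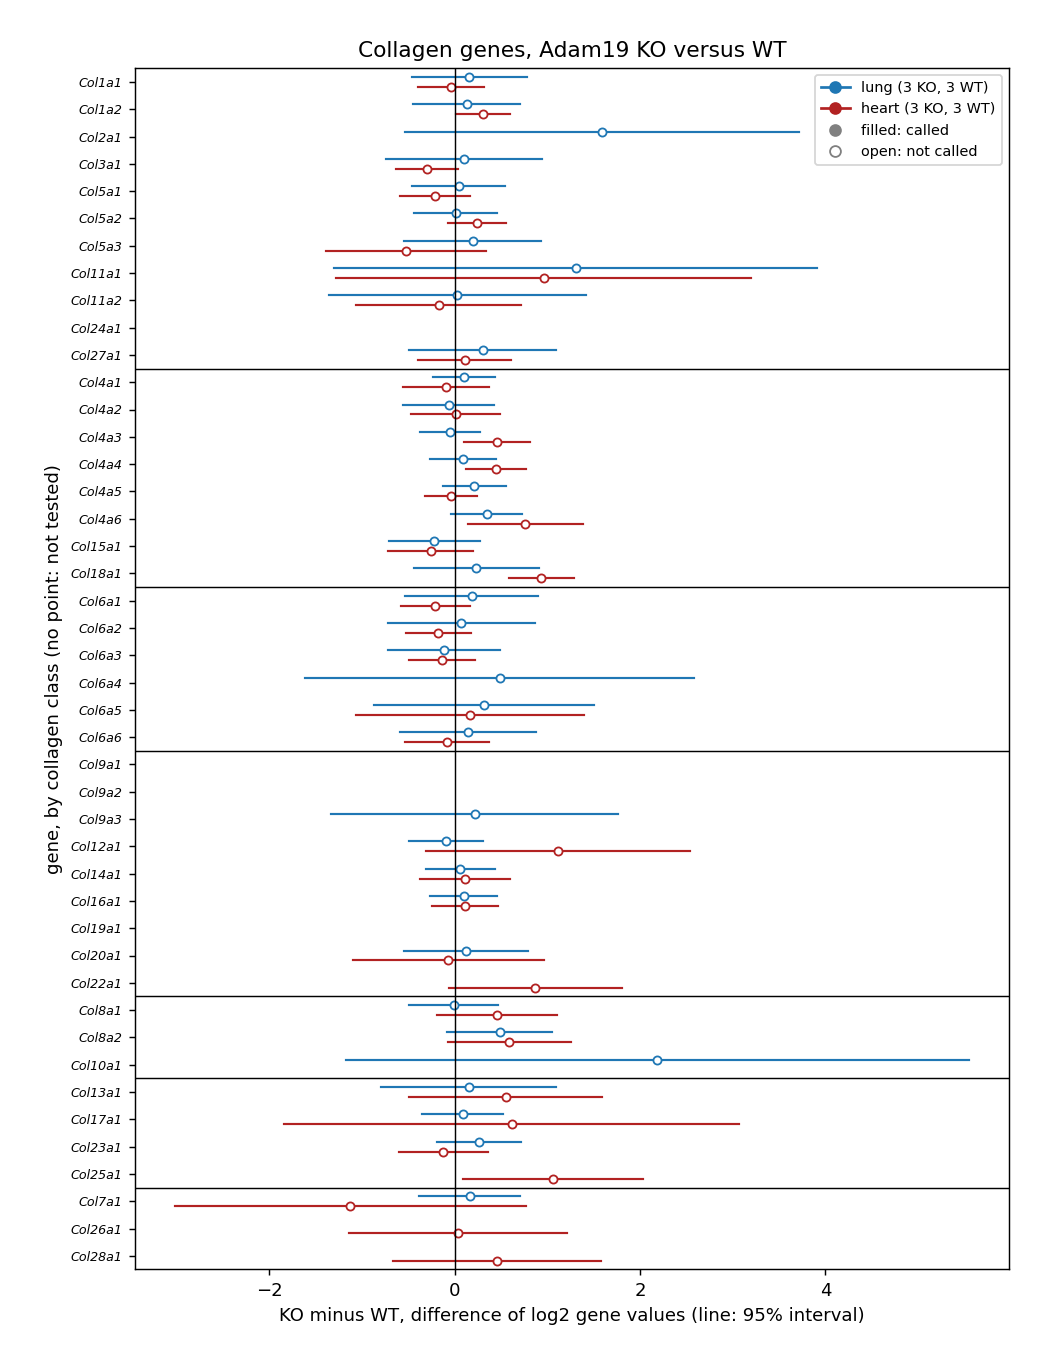
KO minus WT difference of the log2 gene value (x axis) for each collagen gene (y axis, by class) in lung (blue) and heart (red), with 95% intervals and open points because no gene was called. The heart interval of Col18a1, 0.58 to 1.29, lies farthest from 0 of those that exclude it, and the intervals of Col10a1, Col11a1, Col2a1 and Col6a4 are among the widest.

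Col18a1 in the heart had the smallest p of the collagens. Its gene values were 9.41, 9.64 and 9.38 in WT hearts and 10.68, 10.23 and 10.33 in KO hearts, with every KO heart above every WT heart. The difference was 0.94 ± 0.16 (SE, 95% interval 0.58 to 1.29, unadjusted p = 0.000208 in limma), and with adjustment over all heart genes it did not pass (adjusted p = 0.136). Over 13 alternative fits the difference was 0.80 to 1.03 and the adjusted p 0.0527 to 0.523. In lung the difference was 0.24 with an interval of -0.44 to 0.91, and the genotype effects of the organs were not shown to differ (difference -0.70 ± 0.37, adjusted p = 0.654).

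The excess in KO hearts lay mostly in the transcript of the upstream start, an observation made after the values were seen. It had 16.4, 16.9 and 17.1 estimated counts per 1000000 in WT hearts and 44.5, 31.6 and 33.9 in KO hearts. The transcripts of the downstream starts had 5.53, 2.48 and 4.86 in WT hearts and 10.2, 4.29 and 6.31 in KO hearts, which overlapped. In lungs the upstream transcript had 17.6, 17.9 and 7.22 in WT and 23.3, 22.1 and 23.8 in KO libraries. The summed level of 8 smooth muscle and pericyte markers was 14.63 to 14.71 in WT hearts and 15.05 to 15.17 in KO hearts, with no marker at 0. Of these, Acta2 (12.31 to 12.98 in WT, 13.17 to 13.30 in KO), Myh11, Cnn1 and Tagln were higher in KO hearts without overlap, as were 7.82% of all genes tested in heart. No marker was called. Rgs5 (13.21 to 13.52 in WT, 13.29 to 13.52 in KO), Pdgfrb, Cspg4 and Kcnj8 overlapped. The summed level of 8 endothelial markers was 14.40 to 14.58 in WT and 14.50 to 14.59 in KO hearts. The summed atrial markers ranged from 14.87 to 16.59 in WT and from 16.03 to 17.25 in KO hearts. Of them Nppa did not overlap (14.03 to 15.40 in WT, 15.72 to 16.32 in KO), while Myl7, Myl4, Sln and Bmp10 did. Heart WT 3 and heart KO 2 had the lowest value of their genotype for each atrial marker, as for Myl7 with 12.47 and 12.76. The part of these cells in the Col18a1 values was not tested.

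**Figure D5:**
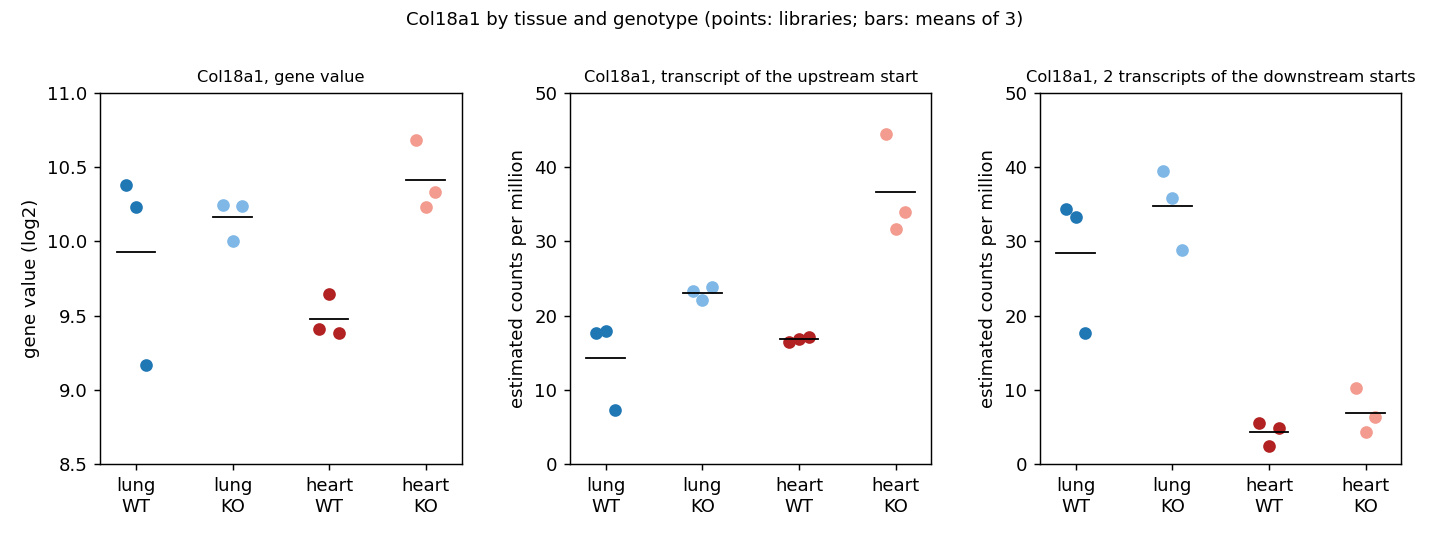
Col18a1 in the 4 groups (x axis), as the gene value (left, log2), and as estimated counts per 1000000 of the transcript of the upstream start (middle) and of the 2 transcripts of the downstream starts (right), with 1 point for each library and a bar at the mean of 3. KO hearts lie above WT hearts in the left and middle panels (31.6 to 44.5 against 16.4 to 17.1 in the middle), and the downstream transcripts are at 17.6 to 39.5 in lungs and 2.48 to 10.2 in hearts. Counts per 1000000 are relative to the total of each library, which is not the scaling of the gene value.

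The other collagens with an unadjusted p under 0.05 in the heart included the minor type IV chains. Col4a3 had 7.21, 7.18 and 7.13 in WT hearts and 7.67, 7.63 and 7.61 in KO hearts, a difference of 0.46 ± 0.16 (unadjusted p = 0.0172, adjusted p = 0.609 in limma). Col4a4 had 8.42, 8.41 and 8.43 in WT and 8.94, 8.69 and 8.97 in KO hearts, a difference of 0.45 ± 0.14 (adjusted p = 0.591). Col4a6 had 8.20, 8.23 and 7.44 in WT and 9.07, 8.25 and 8.83 in KO hearts, a difference of 0.76 ± 0.27 (adjusted p = 0.609). With Col18a1 these were 4 of the 8 basement membrane collagens, where 7.46% of all heart genes had an unadjusted p under 0.05. The 4 were picked by that p and none passed adjustment, so the count is not read as an effect on the class. The most abundant type IV chains in hearts lay near 0, Col4a1 at -0.09 (interval -0.55 to 0.37), Col4a2 at 0.01 and Col4a5 at -0.04. Col15a1 was at -0.26 ± 0.20.

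Col1a2 had 12.15, 12.19 and 12.13 in WT and 12.67, 12.34 and 12.37 in KO hearts, a difference of 0.30 ± 0.13 (adjusted p = 0.660), while its partner Col1a1 was at -0.04 (interval -0.39 to 0.31) and Col3a1 at -0.30 (interval -0.63 to 0.04). Col25a1 had 4.78, 3.29 and 4.22 in WT and 5.26, 5.11 and 5.11 in KO hearts, a difference of 1.06 ± 0.43 (adjusted p = 0.647), at a level under the group mean of 6. Each adjusted p of these genes is limma's over all heart genes.

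In the heart, 1 KO library stood apart for Col12a1 and Col8a1. Col12a1 was 9.76 in heart KO 2 and 7.43 to 7.57 in the other KO hearts, and Col8a1 was 10.60 there and 9.43 to 9.46 in the others.

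In lung the 4 marker genes of the family gave intervals around 0. Col1a1 had 11.06, 11.33 and 10.43 in WT and 11.44, 10.66 and 11.19 in KO lungs, a difference of 0.16 (interval -0.46 to 0.78). Col3a1 had 13.21, 13.21 and 12.32 in WT and 13.38, 12.19 and 13.48 in KO lungs, a difference of 0.10 (interval -0.74 to 0.95). Col4a1 had 13.997, 14.054 and 13.837 in WT and 14.102, 14.003 and 14.077 in KO lungs, a difference of 0.10 (interval -0.24 to 0.43). The remaining lung differences of tested collagens lay between -0.22 (Col15a1) and 0.49 (Col8a2 and Col6a4), apart from Col11a1, Col2a1 and Col10a1 (1.31 to 2.19 with standard errors of 0.94 to 1.48).

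The test of a genotype effect that differs between organs called 0 of 40 collagens in limma and 0 in limma-voom, where 0.00566% of all 17666 genes were called. Only Col4a3 had an unadjusted p under 0.05 among the collagens, with a KO minus WT difference in lung less that in heart of -0.51 ± 0.15 (unadjusted p = 0.00612, adjusted p = 0.517 in limma).

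The genes that hydroxylate, fold, export, trim, crosslink and bind collagens were read in the same fits, from a list of 51 genes. In WT mice 17 were higher in lung and 7 in heart, and in KO mice 13 and 7 of 50 tested. These shares, 47.1% and 40.0%, stand against 50.2% and 53.2% of all genes. With summed rescaled counts the splits were 12 against 11 and 12 against 12, so the balance of directions depended on the scaling. Among hydroxylases and glycosyltransferases 5 of 15 were higher in lung and 4 in heart in WT mice. In folding and export 1 of 9 was called, Sec23a, a coat protein of secretory vesicles, with 9.80 to 10.25 in WT lungs and 11.05 to 11.22 in WT hearts (-1.15 ± 0.17). Of 10 genes of propeptide removal and fibril assembly 5 were higher in lung, of 6 crosslinking genes 2, and of 11 receptors 5.

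Lox, which crosslinks fibrillar collagen, had 10.31 to 10.53 in WT lungs and 6.93 to 7.59 in WT hearts (3.17 ± 0.21, adjusted p = 5.13e-06). Itga2, an integrin subunit of collagen receptors, was higher in lung by 4.02 ± 0.42. Pcolce2, an enhancer of propeptide cleavage, was higher by 2.97 ± 0.15 and Tll1, a propeptide protease, by 2.85 ± 0.32. Higher in heart beside Sec23a were Adamts3, an amino-propeptide protease (5.92 to 6.07 in WT lungs, 7.81 to 8.16 in WT hearts, -2.02 ± 0.23), Itga11, another integrin subunit of collagen receptors (-1.89 ± 0.42), and Plod1, a lysyl hydroxylase (-0.93 ± 0.19). Under the summed rescaled counts Itga11 was at -1.95 and no longer a call.

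Between KO and WT, 0 of 50 pathway genes were called in lung and 0 of 50 in heart by limma and by limma-voom. An unadjusted p under 0.05 was reached by 1 in lung and 6 in heart, and none in both. Of all genes tested, 5.93% in lung and 7.46% in heart had such a p. The lowest was Fkbp10, a collagen-binding prolyl isomerase, which is named after its values were seen. It had 8.45, 8.54 and 8.51 in WT hearts and 9.57, 9.53 and 9.23 in KO hearts (0.94 ± 0.14, adjusted p = 0.0997 in limma).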

How the data were processed

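A gene table and a transcript table deposited by the authors were used. In the transcript table the authors gave log2 of 1 plus the count estimated by Salmon against GENCODE vM33 transcripts of mm39. In the gene table they gave log2 normalized abundance, whose scaling is not named in the sources used here. Over 10760 genes the gene values followed per-length sums of the transcripts (median absolute log2 difference 0.012) more closely than summed counts (0.0376), so a few reads on a short transcript can raise a gene value. The labels list limma 3.42.2 among the authors' tools. Depth, 17674788 to 35862932 estimated counts a library, limits the genes with few counts.

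Groups came from the labels, with 3 mice a genotype. Gene values were compared with limma 3.58.1 (R 4.3.3, lmFit and eBayes with a trend), within the libraries of each comparison, for genes at 3.46 (log2 of 1 + 10) or more in at least 3 libraries. Adjusted p-values (Benjamini-Hochberg) are over all genes tested. Called genes passed adjusted p under 0.05, a fold of 1.5 and a group mean of 6. The genotype-by-tissue test used 12 libraries and adjusted p alone. Lung and heart of 1 mouse share a replicate number, from the mouse identifiers. The correlations of their deviations from the group means were -0.068 to 0.136, and the paired fit was an alternative. Chain ratios were tested over 6 mice by exact sign-flip permutation. Transcript lengths came from GENCODE vM39 on GRCm39, with lengths for 99.5% of transcripts.

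The collagens, gene lists and tests were chosen with earlier results of these data known. The genes named in full are Col1a1, Col3a1, Col4a1 and Col18a1, up to 8 collagens a direction with the largest difference among those called without overlap in WT lung against heart, those with an unadjusted p under 0.05 between genotypes, the most abundant of each class in each organ, and up to 4 pathway genes a direction. The scripts were checked on data with known answers. Alternatives were no variance trend, summed transcripts with median-of-ratios scaling, quantile normalization, other filters, limma-voom, all 12 libraries, the mouse as a block, and leaving out each library. Levels of 14 marker lists were read for other cell types, and no gene of them was called between genotypes. Col21a1 was not analysed here.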

Additional observations from a re-analysis of the deposited data

How the results depend on the processing

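The counts of called collagens kept within 1.5 times under every alternative run. In WT lung against heart they were 14 to 18, and in KO mice 19 to 21. Leaving out 1 library gave 14 to 18 in WT and 19 to 21 in KO mice, where Col4a1 was gained without heart KO 2. The count of 18 came without lung WT 3, when Col18a1, Col27a1, Col5a2 and Col6a1 were gained and Col20a1 was lost. With the mouse as a replicate block the counts were 16 and 20, the blocked pathway counts were 24 and 20, and the blocked genotype-by-tissue count was 0, and pairing changed no collagen call other than Col7a1. The counts of called collagens and pathway genes between genotypes were 0 under each alternative. The collagen share of all per-length abundance moved with its denominator. With transcript lengths less 200 nucleotides it was 0.0207% (WT lung), 0.0454% (KO lung), 0.0328% (WT heart) and 0.0267% (KO heart), and without the most abundant genes 0.216%, 0.238%, 0.110% and 0.109%. Of the chain ratios 7 passed, and leaving out 1 mouse gave 0 in each case (range 0 to 0), since 5 mice cannot reach an adjusted p under 0.05. Leaving out 1 library gave 22 to 25 pathway genes in WT and 20 to 22 in KO mice. No named gene that was called reversed its sign under any alternative run.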
